A study of Mus musculus with 21 samples.

Results

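*Kif11* fl/del oocytes without Cre were compared with *Kif11* wt/fl oocytes without Cre, gene by gene, in 8 of the 21 libraries of the series (4 of each genotype, chosen by their genotype labels, FloxDel and WtFlox). Each library holds the poly(A) RNA of 3 fully grown mouse oocytes at the germinal vesicle stage, the stage of prophase arrest before meiotic divisions begin. In wt/fl oocytes, the control, a wild-type allele is paired with a floxed allele, which by the study's scheme has loxP sites after exon 1 and within the non-coding part of exon 22, the last exon. In fl/del oocytes, the floxed allele is paired with a del allele from which Cre removed this stretch in an earlier generation, so every cell of the mouse carries the deletion, follicle cells included. Both groups therefore share a floxed allele, were made on a C57BL/6 background and carry no Cre transgene. The comparison asks what a deleted copy of *Kif11* changes in the oocyte transcriptome before any spindle is built.

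KIF11 (Eg5, kinesin-5) is a tetrameric motor that crosslinks antiparallel microtubules and slides them apart, which pushes spindle poles away from each other. Mouse oocytes lack centrioles and build their meiotic spindle from many microtubule-organizing centers (MTOCs), and KIF11 drives the step from a ball of microtubules to a bipolar spindle. A fully grown oocyte is transcriptionally silent, so the RNA measured here was made and stored during growth.

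The total count was between 12729969 and 14283549 in the wt/fl libraries and between 15635115 and 16836618 in 3 of the fl/del libraries, but 7205010 in fl/del replicate 3. That library also detected the fewest genes, 16740 against 18021 to 18989 in the other 7, and its median correlation with the rest (log2 CPM) was 0.970 against 0.976 to 0.981. Results that rest on it are given with and without it. Oocyte transcripts were abundant in both genotypes: the oocyte linker histone *H1foo* was at 9188 CPM (counts scaled to a library total of 1000000) in wt/fl and 9256 CPM in fl/del, and *Gdf9*, a growth factor secreted by the oocyte, at 4906 and 5187 CPM. Of 26 follicle cell markers, 17 had enough counts to test. Their summed level was 88.9 to 128 CPM in wt/fl and 105 to 124 CPM in fl/del libraries, most of it from *Cyp19a1* (69.1 and 69.3 CPM), while the defining markers *Amh*, *Foxl2* and *Amhr2* were too low to test. Of 16 blood and immune markers, 7 were tested, with a sum of 30.1 to 41.6 CPM in wt/fl and 25.6 to 28.1 CPM in fl/del, of which *Pecam1* made up most. The part of these cells in the results below was not tested.

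*Kif11* itself was the gene with the lowest p-value in the comparison. Counted over all exons, its level was 38.9, 43.2, 23.8 and 32.2 CPM in wt/fl replicates 1 to 4 and 12.9, 12.7, 7.49 and 14.6 CPM in fl/del replicates 1 to 4. No fl/del library reached the lowest wt/fl library. The fl/del mean was 34.5% ± 8.87 of the wt/fl mean (SD, n = 4), and a two-sided permutation test of the group means, enumerated exactly, returned p = 0.0286, which is the minimum with 4 libraries in each group. The test takes libraries as independent, although each mouse gave 1 or 2 of them. In the quasi-likelihood fit of edgeR, the log2 fold change was −1.50 (SE 0.22, 95% confidence interval −1.93 to −1.07, Benjamini-Hochberg adjusted p = 8.47e-05). With all 8 libraries, the whole interval lay below −1, a 2-fold decrease. Without fl/del replicate 3, the lowest of the fl/del libraries, the log2 fold change was −1.34 (adjusted p = 0.00257 from edgeR). The fl/del mean was then 38.8% of the wt/fl mean. No interval was computed for that setting. CPM is a share of each library, so less RNA of 1 gene and more RNA of all others cannot be told apart.

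**Figure D1:**
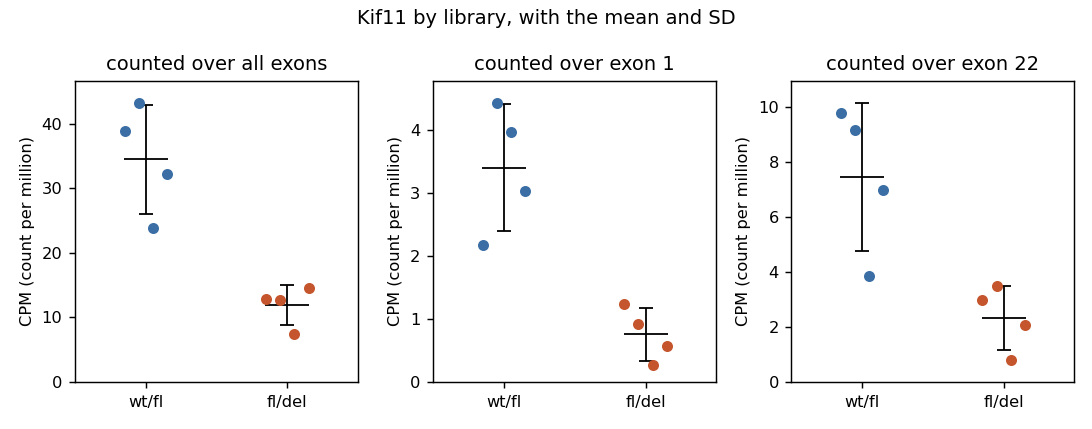
*Kif11* in each library without Cre, as CPM (vertical axis, from 0) counted over all exons, exon 1 or exon 22. Points are libraries, and bars are the mean and SD of 4 libraries. Under each way of counting, every fl/del library lies below every wt/fl library, and the lowest fl/del library is replicate 3.

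By the study's scheme of the floxed allele, a deletion between its loxP sites leaves exon 1 and the end of exon 22. The 22 exons of *Kif11* span 37376403 to 37421859 of chromosome 19 (GRCm38, forward strand). The splice junctions at both ends of the deletion show which transcript sequence cannot come from a del allele. They are read from the GENCODE M21 transcript, the first exon of each pair in lower case and the second in capitals.
Exon 1 to exon 2: ggtggtgagatgcagACCATTTAATCTGGC
Exon 21 to exon 22: cttccatttttccagCGAAAAAAGCCACAT
The first joins chr19:37376653-37376667 to chr19:37384240-37384254, and the second joins chr19:37418003-37418017 to chr19:37420259-37420273. Exon 1 (265 bases, of which 74 are coding) could still be transcribed from a del allele, but its reads were not in excess in fl/del. The counts over exon 1 were 16, 29, 27 and 20 in wt/fl and 10, 8, 1 and 5 in fl/del replicates 1 to 4. Over exon 22 (1601 bases, of which 129 are coding), they were 72, 60, 26 and 46 in wt/fl and 24, 30, 3 and 18 in fl/del. Scaled to library totals, exon 1 stood at 22.1% ± 12.4 and exon 22 at 31.4% ± 15.7 of wt/fl (SD, n = 4), each with the smallest exact permutation p of the design (0.0286). Without fl/del replicate 3, the levels were 26.9% over exon 1 and 38.2% over exon 22. In fl/del Spo11-Cre, where the floxed allele is deleted too, the counts were 0, 1, 0 and 2 over exon 1 and 8, 10, 6 and 6 over exon 22 in replicates 1 to 4, so almost no exon 1 reads were detected although the scheme leaves this exon in place. These counts are low in single libraries, and differences between the ends and the whole of the gene were not tested.

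The genes beside *Kif11* were at similar levels in both genotypes. Of 11 tested genes of the fixed list for this stretch of chromosome 19, *Kif11* included, none other was called. *Ide*, an insulin-degrading protease on the upstream side, was at 61.7 CPM in wt/fl and 59.8 CPM in fl/del (log2 fold change −0.03), and *Hhex*, a homeobox gene on the downstream side, at 60.2 and 56.3 CPM (−0.08). *Exoc6* had the lowest p of them, with 37.9 and 47.1 CPM (log2 fold change 0.33, adjusted p = 0.576 from edgeR). *Rae1* and *Rbm38*, which neighbour *Spo11*, served as a check that fl/del carries no Spo11-Cre transgene. *Rae1* was at 216, 206, 215 and 192 CPM in wt/fl replicates 1 to 4 and at 169.9 to 213 CPM in fl/del, while the libraries with Spo11-Cre were between 320.3 and 431.5 CPM. *Rbm38* was at 90.4 to 140.4 CPM in wt/fl and 84.3 to 90.5 CPM in fl/del, against 154 to 279 CPM with Spo11-Cre.

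Across the genome, 5 of 22383 genes tested passed an adjusted p of 0.05 (0.0223%). Of these, 2 rose (0.00894% of genes), among them *E330020D12Rik*, and 3 fell (0.0134%): *Kif11*, *Fpgs* and *Rab3d*. Without adjustment, 1906 genes had a p under 0.05 (8.52%), of which 946 were higher (4.23%) and 960 lower (4.29%) in fl/del. The libraries of the groups did not overlap in CPM for 669 genes (2.99%), with 272 higher (1.22%) and 397 lower (1.77%) in fl/del. *Kif11* had the largest decrease among the genes called, and the plot of fold change against level shows it apart from genes at the same level.

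**Figure D2:**
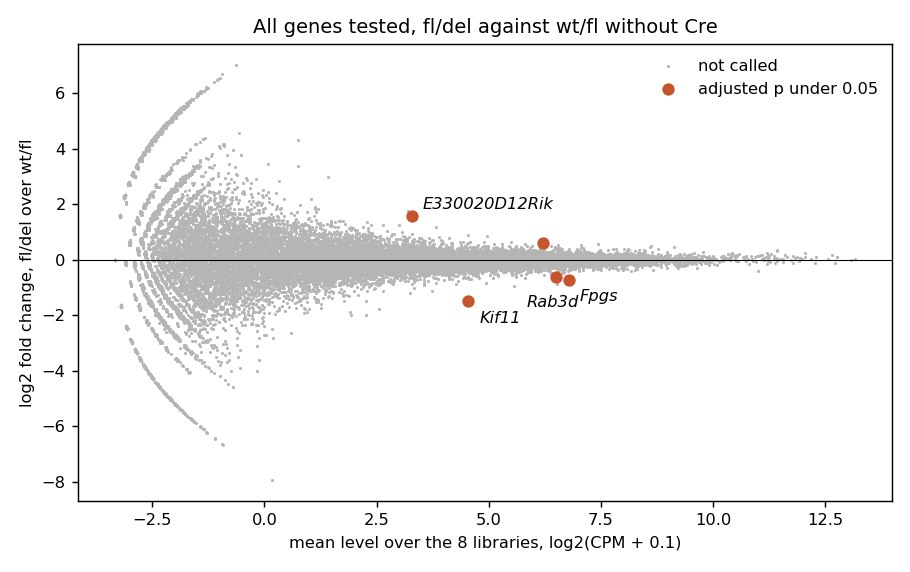
Log2 fold change of fl/del over wt/fl from edgeR (vertical axis) against the mean level over the 8 libraries, as log2(CPM + 0.1). Each grey point is 1 of 22383 genes tested, and the larger points, of which 4 are labelled, have an adjusted p under 0.05. The spread of fold changes narrows as the level rises.

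How small a change could be seen depended on the level of a gene. The 95% interval of the log2 fold change lay within 1 of 0, that is, within a 2-fold change in either direction, for 9543 genes (42.6% of those tested). This held for 2143 of 2144 genes at 100 CPM or more in wt/fl (99.95%, median SE 0.10) and for 5444 of 5559 genes between 10 and 100 CPM (97.9%, median SE 0.17). It held for 28.9% of the 5637 genes between 1 and 10 CPM, and for 3.63% of the 9043 genes under 1 CPM. For genes at 10 CPM or more, the intervals mostly excluded a change of over 2-fold, and for most rarer transcripts they did not. They do not measure how often such a change would pass the adjusted p.

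*Fpgs* encodes folylpolyglutamate synthase, which adds glutamates to folates and so keeps them inside the cell (ENSMUSG00000009566, chromosome 2, 32682609 to 32704145, reverse strand). Its level was 136, 152, 101.4 and 162 CPM in wt/fl and 101.4, 92.3, 55.2 and 81.5 CPM in fl/del replicates 1 to 4. The lowest wt/fl library, replicate 3 at 101.4 CPM, and the highest fl/del library almost met. The fall was to 0.610 of the wt/fl level (log2 fold change −0.71, SE 0.14, adjusted p = 0.0126 from edgeR). The end of *Fpgs* overlaps *Eng*, which had too few counts to test.

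*Rab3d* encodes a small GTPase of the Rab3 family that sits on secretory vesicles and regulates their release (ENSMUSG00000019066, chromosome 9, 21907491 to 21918192, reverse strand). It was at 98.9, 117, 96.6 and 124 CPM in wt/fl and at 79.0, 59.5, 59.3 and 86.4 CPM in fl/del replicates 1 to 4, with no overlap. It fell to 0.659 of the wt/fl level (log2 fold change −0.60, SE 0.12, adjusted p = 0.0153 from edgeR). Of 33 tested genes of vesicle release, a list chosen after these values were seen, no other was called, and the median log2 fold change was −0.07, against 0 over all genes tested.

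*E330020D12Rik* is annotated as a processed transcript without a protein product (ENSMUSG00000073538, chromosome 1, 153404827 to 153414233, reverse strand). Its counts were 43, 62, 79 and 72 in wt/fl and 222, 207, 142 and 188 in fl/del replicates 1 to 4, which is 3.01 to 5.99 CPM against 11.2 to 19.7 CPM. It rose 2.95-fold (log2 fold change 1.56, SE 0.29, adjusted p = 0.0115 from edgeR). Genes within 100 kb of *Fpgs*, *Rab3d* and *E330020D12Rik* were not called: 8, 10 and 5 of them were tested. The nearest to *E330020D12Rik*, *Shcbp1l*, was at 8.54 CPM in wt/fl and 8.78 CPM in fl/del.

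The calls of *Fpgs*, *Rab3d* and *E330020D12Rik* were lost in several settings. Without fl/del replicate 3, the library of low total count, *Kif11* was the single gene called. The log2 fold changes were then 1.39 for *E330020D12Rik* (adjusted p = 0.162), −0.56 for *Fpgs* (0.189) and −0.52 for *Rab3d* (0.189), all from edgeR and all in the same direction as with it. That replicate had the highest *E330020D12Rik* and the lowest *Fpgs* and *Rab3d* of the fl/del libraries. *E330020D12Rik* was also lost without wt/fl replicate 1 (adjusted p = 0.0952 from edgeR). *Fpgs* was lost without wt/fl replicate 2, wt/fl replicate 4 or fl/del replicate 4 (adjusted p from 0.0892 to 0.104), and *Rab3d* without wt/fl replicate 2, wt/fl replicate 4 or fl/del replicate 2 (0.101 to 0.141). With filterByExpr, a stricter filter on low counts, the adjusted p was 0.0671 for *E330020D12Rik*, 0.176 for *Fpgs* and 0.0708 for *Rab3d*. With libraries of a shared name prefix summed, *E330020D12Rik* (0.0575) and *Rab3d* (0.208) were not called, while *Fpgs* was (0.0354). Of 17 other settings, *E330020D12Rik* was called in 13, *Fpgs* in 12 and *Rab3d* in 11, each with the same direction in every one. *Kif11* was called in 16 of 17, with log2 fold changes from −1.63 to −1.34. The exception was the table that counts its exon 22 alone (log2 fold change −1.58, adjusted p = 0.123 from edgeR).

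Libraries of wt/fl and fl/del were also made with Spo11-Cre (5 wt/fl and 4 fl/del), which removes the floxed allele in the oocyte. There, by the study's scheme, wt/fl oocytes keep the wild-type allele alone and fl/del oocytes keep no complete allele. The pair thus compares other doses of *Kif11* than the pair without Cre. *Kif11* was at 24.6 CPM in wt/fl and 1.78 CPM in fl/del with Cre. With Cre, *Fpgs* was at 89.7 ± 13.5 CPM in wt/fl and 104 ± 18.7 CPM in fl/del (log2 fold change 0.18, adjusted p = 0.854 from edgeR), and *Rab3d* at 60.2 ± 2.59 and 66.6 ± 5.81 CPM (0.12, adjusted p = 0.943). *E330020D12Rik* was at 11.6 ± 5.49 and 13.8 ± 3.55 CPM (0.23, adjusted p = 0.966). Values are mean ± SD. Of the 5 genes called without Cre, 1 was called with it, *Kif11*, in a comparison that called 8 genes in all (0.0357%). The effect of the del allele differed between libraries with and without Cre for 23 genes (0.103%) in an interaction test in the same fit. *Kif11*, *Fpgs* (difference of log2 fold changes 0.89, adjusted p = 0.0253) and *Rab3d* (0.72, adjusted p = 0.0485) were among them. *E330020D12Rik* (−1.34, adjusted p = 0.161) was not. These genes were chosen on the libraries without Cre, which the interaction test uses too.

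**Figure D3:**
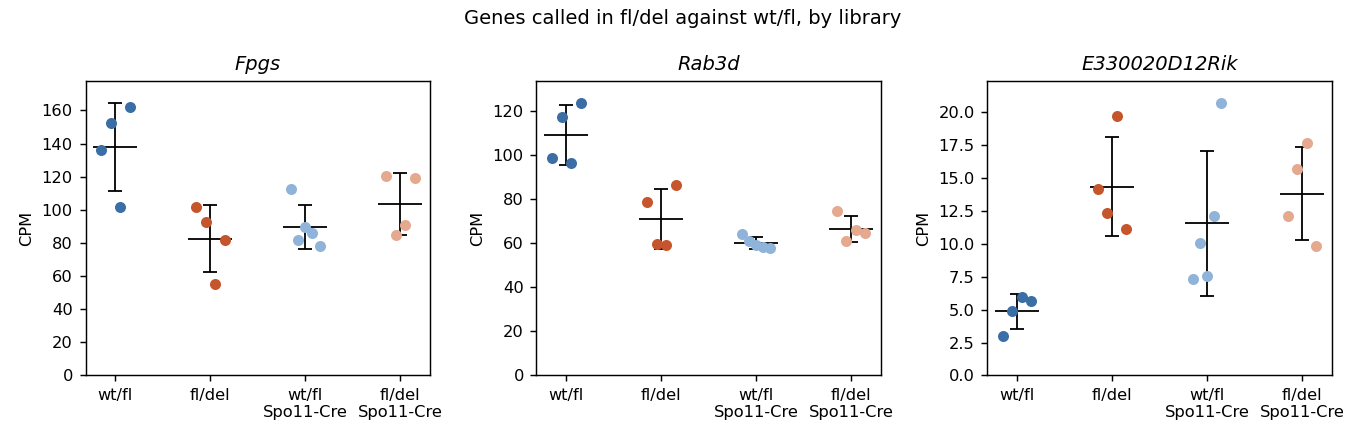
*Fpgs*, *Rab3d* and *E330020D12Rik*, called without Cre, in CPM (vertical axes, from 0) in the 17 libraries of 4 genotypes. Points are libraries, and bars are the mean and SD. For *Rab3d* and *E330020D12Rik*, the wt/fl libraries without Cre lie outside the range of the other 13 libraries.

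Set beside the other genotypes of the Spo11-Cre background, it was the wt/fl group without Cre that stood apart in these genes. By the scheme, this group alone keeps both *Kif11* alleles complete in the oocyte. Its *E330020D12Rik* levels, at most 5.99 CPM, were below the 7.36 CPM of the lowest of the 13 other libraries. Its *Rab3d* levels, at least 96.6 CPM, were above the highest other library at 86.4 CPM. For *Fpgs*, wt/fl replicate 3 lay within the range of the others (55.2 to 120.1 CPM). The named genes were picked for a difference between the groups without Cre. Over all genes tested, 51 were higher (0.228%) and 28 lower (0.125%) in every wt/fl library without Cre than in the 13 other libraries. For fl/del without Cre the same counts were 11 and 11 (0.0491% each). They were 12 and 6 for wt/fl Spo11-Cre, and 18 and 9 for fl/del Spo11-Cre. Which of these differences follow genotype, mouse or library preparation cannot be told apart, since each mouse gave 1 or 2 libraries.

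Kinesins other than *Kif11* were not called. Of 42, 39 were tested, with 0 higher and 4 lower at an unadjusted p under 0.05, a median log2 fold change of −0.02, and 22 intervals within a 2-fold change. Genes of this and the following lists are named for their roles or for their low p, after their values were seen. *Kif15*, a kinesin that can also drive spindle poles apart, had few counts: 58, 50, 51 and 50 in wt/fl and 23, 44, 32 and 59 in fl/del, which gave a log2 fold change of −0.40 with an interval from −1.32 to 0.53. The more abundant *Kif18a*, which moves chromosomes to the spindle equator, was at 187 and 185 CPM (log2 fold change 0.00, interval −0.18 to 0.18), and the chromokinesin *Kif4* at 227 and 219 CPM (−0.03, interval −0.22 to 0.16). The lowest p-values belonged to *Kif16b*, a motor of endosomes (40.1 and 29.6 CPM, log2 fold change −0.42, adjusted p = 0.471 from edgeR), and to the chromokinesin *Kif22* (648 and 550.1 CPM, −0.22, adjusted p = 0.533). Summed over the list, kinesins made up 3620 to 3689 CPM in wt/fl and 3287 to 3454 CPM in fl/del libraries. With Spo11-Cre, the sums were 3117 to 3513 CPM in wt/fl and 3108 to 3432 CPM in fl/del. The sums were not tested.

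Genes of spindle assembly and chromosome segregation were called in neither direction. Over all genes, 4.23% were higher and 4.29% lower at an unadjusted p under 0.05. Such p-values were more frequent among abundant genes, in both directions together. They were found for 268 of 2144 genes at 100 CPM or more in wt/fl and 577 of 5559 between 10 and 100 CPM. Below that, they were found for 299 of 5637 genes between 1 and 10 CPM and 762 of 9043 under 1 CPM. The counts of the lists, to be read against these shares, were as follows. Of 30 MTOC genes tested, 1 was higher and 4 lower (median log2 fold change −0.11), and of 32 Ran and spindle assembly factors 1 was higher and 2 lower (0.03). Of 45 kinetochore and checkpoint genes, 3 were higher and 5 lower (0.03), and of 24 dynein and dynactin genes, 1 was higher and 4 lower (−0.05). The microtubule nucleation factor *Tpx2* was at 422 and 436 CPM, with a log2 fold change of 0.06 (interval −0.10 to 0.23), and the MTOC and spindle protein *Tacc3* at 2487 and 2730.3 CPM (0.15, interval −0.02 to 0.31). Among checkpoint genes, *Mad2l1* was at 673 and 715 CPM (0.11, interval −0.05 to 0.26) and *Bub1b* at 879 and 711 CPM (−0.29, adjusted p = 0.384). *Plk1*, a mitotic and meiotic kinase of spindle poles and kinetochores, was at 275 and 221 CPM (−0.30, adjusted p = 0.444). *Cenpk*, a protein of the inner kinetochore, did not overlap between groups (62.0 to 78.9 CPM in wt/fl and 92.2 to 105 CPM in fl/del, log2 fold change 0.49), but was not called by edgeR (adjusted p = 0.155). DESeq2, the alternative test, called it (adjusted p = 0.0205). Of 45 kinetochore and checkpoint genes, 43 had an interval within a 2-fold change.

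The tubulin gene with the lowest p was *Tuba3b*, an alpha-tubulin, at 167, 102, 137 and 69.9 CPM in wt/fl and 106, 54.9, 54.7 and 42.9 CPM in fl/del replicates 1 to 4. The groups overlapped, and the log2 fold change of −0.86 was not called (adjusted p = 0.155 from edgeR). Without fl/del replicate 1, its highest fl/del library, it was called (log2 fold change −1.22, adjusted p = 5.08e-04 from edgeR), as it was without wt/fl replicate 4, its lowest wt/fl library (−1.04, adjusted p = 0.0192), and with the exon 22 table (−0.87, adjusted p = 0.0459). With libraries of a shared name prefix summed, it was called too (−0.91, adjusted p = 0.0461 from edgeR). The same held without a filter on low counts (4.96e-10) and with the replicate number as a block (7.83e-11). With Spo11-Cre, *Tuba3b* was at 92.6 CPM in wt/fl and 134.5 CPM in fl/del. The log2 fold change there was 0.51 (adjusted p = 0.702 from edgeR), in the other direction. The interaction was called (difference of log2 fold changes 1.36, adjusted p = 0.0197 from edgeR). *Tuba3b* belongs to a family of near-identical genes, so its counts are uncertain. Of 21 tubulin genes tested, 2 were lower and 0 higher at an unadjusted p under 0.05, with a median log2 fold change of −0.02.

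Meiotic cell cycle genes gave 1 higher and 6 lower of 45 tested at an unadjusted p under 0.05 (median log2 fold change −0.07), and 42 intervals lay within a 2-fold change. *Ccnb1*, which encodes cyclin B1, was at 2534 CPM in wt/fl and 2382 CPM in fl/del (log2 fold change −0.07, interval −0.24 to 0.10), and *Mos*, the kinase that holds eggs in metaphase II arrest, at 1025 and 964 CPM (−0.07, interval −0.23 to 0.09). Cohesin and synapsis genes gave 4 higher and 0 lower of 35 (median 0.01). Oocyte genes gave 7 higher and 3 lower of 51 (median 0.04), with *Ooep*, of the subcortical maternal complex, at 2480.2 and 3047 CPM (log2 fold change 0.31, adjusted p = 0.322 from edgeR) and *Zp3*, of the egg coat, at 3919 and 3755 CPM (−0.05, interval −0.20 to 0.11). None of these lists had a member called.

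Lists for the response to a damaged or stressed cell were likewise without a call. Of 33 genes of p53 and apoptosis, 1 was higher and 1 lower at an unadjusted p under 0.05 (median log2 fold change −0.04), of 36 DNA damage and repair genes 1 and 4 (−0.03), and of 36 stress and chaperone genes 3 and 3 (−0.01). In the same order, intervals lay within a 2-fold change for 15, 33 and 24 genes, so much of the p53 and apoptosis list was not resolved. *Cdkn1a*, the p53 target that stops the cell cycle, was at 1.13 CPM in wt/fl and 1.27 CPM in fl/del, too low to resolve (interval −1.10 to 1.53). The chaperone *Hsp90aa1* did not overlap between groups, with means of 2149.5 and 2525 CPM (log2 fold change 0.25, adjusted p = 0.287 from edgeR and 0.0461 from DESeq2).

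**Figure D4:**
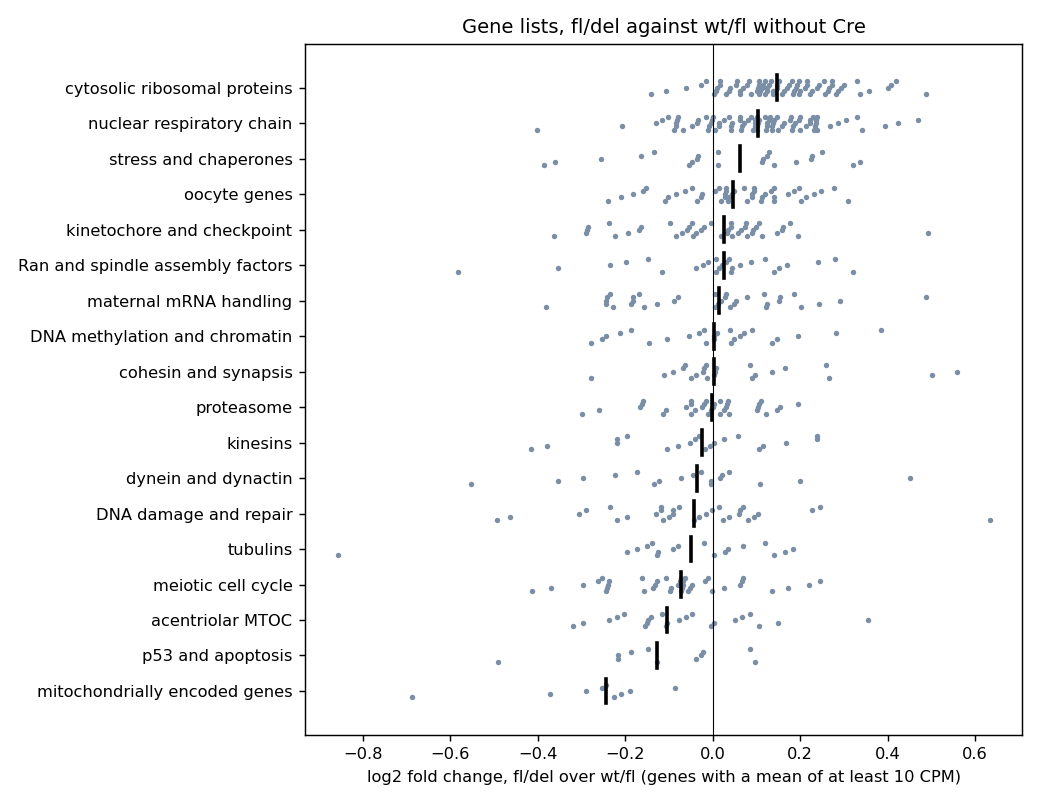
Log2 fold change of fl/del over wt/fl (horizontal axis) for the tested genes of 18 lists with a mean of at least 10 CPM over both groups. Each point is a gene, and black bars are list medians. Medians run from −0.24 for mitochondrially encoded genes to 0.15 for cytosolic ribosomal proteins, against −0.01 for all 7684 genes at that level.

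Genes of ribosomes and mitochondria lay mostly on one side of 0. Over all genes tested, the median log2 fold change was 0, with 4.23% higher and 4.29% lower at an unadjusted p under 0.05. Such p-values were more frequent among abundant genes. Of 82 cytosolic ribosomal protein genes tested, 14 were higher and 0 lower at an unadjusted p under 0.05, 74 had a log2 fold change above 0, and the median was 0.15. Of 91 nuclear genes of the respiratory chain, 14 were higher and 1 lower, 67 lay above 0, and the median was 0.10. *Rpl31*, of the large ribosomal subunit, was at 81.8 and 108 CPM (log2 fold change 0.42, adjusted p = 0.322 from edgeR) and *Cox7c*, of cytochrome c oxidase, at 82.4 and 109.7 CPM (0.42, adjusted p = 0.340). No member of either list was called. Both lists were highest in fl/del replicate 3. Ribosomal protein genes summed to 10279.7, 9292, 10282 and 8832 CPM in wt/fl and to 9624, 9975, 12051 and 10582 CPM in fl/del replicates 1 to 4. With Spo11-Cre, they summed to 10231 to 12960 CPM in wt/fl and to 10089 to 12211 CPM in fl/del. Respiratory chain genes summed to 12357 to 13484 CPM in wt/fl and 12242 to 15584 CPM in fl/del without Cre. With Cre, their sums were 13140 to 16042 and 13182.5 to 14888 CPM. Without fl/del replicate 3, 6 ribosomal protein genes were higher (median 0.08) and 2 respiratory chain genes (median 0.03). With any other library left out, 7 to 26 ribosomal protein genes (medians 0.11 to 0.19) and 7 to 20 respiratory chain genes (medians 0.08 to 0.14) were higher.

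Transcripts encoded by the mitochondrial genome lay on the other side of 0, with 0 higher and 5 lower of 27 tested and a median of −0.24. They summed to 2458, 1817, 2814 and 2047 CPM in wt/fl and to 1681, 2265, 1841 and 1705 CPM in fl/del replicates 1 to 4, so the groups overlapped. *mt-Rnr2*, the large mitochondrial ribosomal RNA, was at 457 CPM in wt/fl and 350 CPM in fl/del (log2 fold change −0.37, adjusted p = 0.239 from edgeR). With Spo11-Cre it rose in fl/del (log2 fold change 0.69, adjusted p = 1.22e-05), and the interaction was called. The list median depended on the libraries used: it was −0.09 without wt/fl replicate 3 (3 genes lower), but −0.39 without wt/fl replicate 2 (10 lower), −0.43 without fl/del replicate 1 (4 lower) and −0.44 without fl/del replicate 2 (10 lower).

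**Figure D5:**
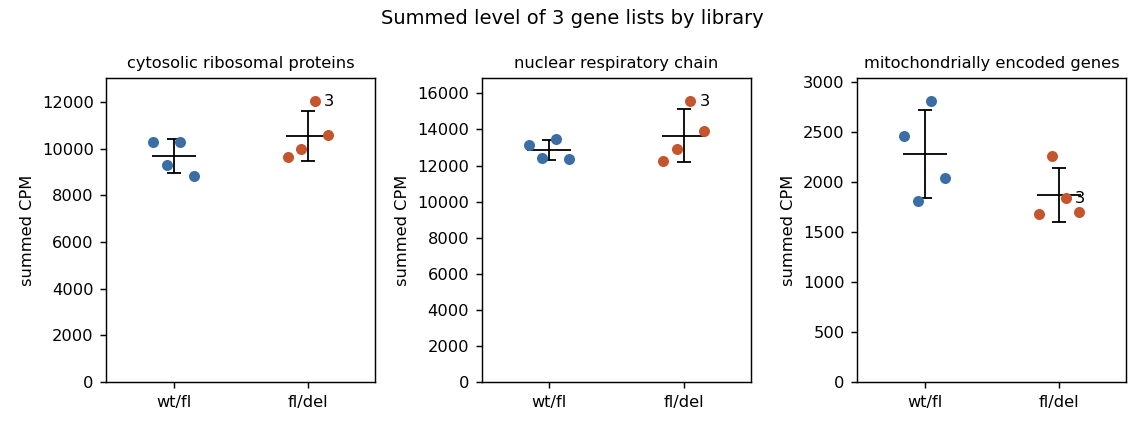
Summed CPM (vertical axes, from 0) of cytosolic ribosomal protein genes, nuclear respiratory chain genes and mitochondrially encoded genes in each library. Points are libraries, bars are the mean and SD of 4, and the digit marks fl/del replicate 3, which has the highest sum in the first and second panels.

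Fold changes also varied with the base composition of transcripts. Among 7695 genes at 10 CPM or more in wt/fl, the median log2 fold change was 0.03 in the fifth of genes with the lowest GC content of the longest transcript and −0.10 in the fifth with the highest. Without fl/del replicate 3 the same medians were 0.05 and −0.09. *Fpgs* (58.2% GC) and *Rab3d* (53.2%) had more GC than 95.5% and 78.3% of the 7695 genes. The part of GC content in the calls was not tested. By transcript length, the median log2 fold change was 0.04 for the 1540 genes of 57 to 1673 bases. It was −0.04 to −0.01 for groups of genes with longer transcripts. These medians were 0.02 and −0.01 to 0.01 without fl/del replicate 3. In fl/del replicate 3 alone, the median was 0.10 for the shortest transcripts and −0.11 to −0.08 for longer ones (log2 scale). The part of length in the ribosomal protein and respiratory chain results was not tested.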

How the data were processed

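The authors collected 3 oocytes per library, with 1 or 2 replicates from each mouse, amplified cDNA with SMART-seq v4 and sequenced it. Reads were trimmed (fastp), mapped to GRCm38 (HISAT2 2.2.1) and assigned to genes (featureCounts 2.0.3). The deposited counts are whole numbers without normalization, for 54232 genes, with *Kif11* counted over all exons, exon 1 or exon 22 in separate tables. The TPM values deposited by the authors were read, but are not printed. All-exon counts were 1.96 times those of the exon 22 table (median), so levels were set side by side within a table.

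CPM were computed on library totals. edgeR 4.0.16 (glmQLFit, glmQLFTest, TMM) was fitted to the 17 libraries of the Spo11-Cre background, which share an estimate of spread, leaving out genes detected in fewer than 3 of them. The call is a Benjamini-Hochberg adjusted p under 0.05. Intervals are at 95%. P-values measure the spread between libraries, some of which share a mouse. Levels of *Kif11* were compared by exact permutation of the libraries, two-sided. Names and positions come from GENCODE M21 (GRCm38). Low counts limit precision as given with each result, and counts of amplified reads are not counts of molecules.

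Named genes are *Kif11*, genes called within the lists, up to 12 per direction of called genes that have a mean count of at least 20 and do not overlap between groups, *Rae1* and *Rbm38*. The genes and the 24 lists were chosen with earlier results of these data known, and a further list after these results. A gene that was called, and a list that holds it, are not reported here. Alternatives were DESeq2 1.42.0, RLE factors, other filters and sets of libraries, a replicate block, sums of libraries that share a name prefix, the exon 22 table and leaving out each library. On simulated data for fl/del against wt/fl over 22383 genes, 70% of 100 genes changed by 1 on the log2 scale and 94% of 100 changed by 2 were recovered, with 9 false calls. The changed genes were drawn from those with a mean above 2 CPM, so these shares do not cover rarer genes. The simulated libraries were independent, unlike libraries that share a mouse. No 2 libraries were duplicates: the lowest chi-square per degree of freedom within a group was 12.7. R 4.3.3 and Python 3.11.15 were used.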

Additional observations from a re-analysis of the deposited data

Results flagged for a closer look

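The total count of fl/del replicate 3 was 7205010, far below the other fl/del libraries, the lowest of which had 15635115, and its gap to them took up most of the range of the group. It was picked out of 20 such checks of groups of 4 libraries, of which chance alone picks out about 1 in 20. *Fpgs*, *Rab3d* and *E330020D12Rik* were not called without this library, as the report gives.

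The effect of the del allele differed between libraries with and without Spo11-Cre for 3 of the genes that were called without Cre, by an interaction test in edgeR over 17 libraries. For *Kif11* the log2 fold change of fl/del over wt/fl was lower with Cre by 2.32, a difference of −2.32 (SE 0.32, adjusted p = 1.21e-05). There, the floxed allele is removed in both genotypes, and no complete allele is left in fl/del. For *Fpgs* the difference was 0.89 (SE 0.19, adjusted p = 0.0253). The level fell in fl/del without Cre, and with Cre it was 89.7 CPM in wt/fl and 104 CPM in fl/del. For *Rab3d* it was 0.72 (SE 0.16, adjusted p = 0.0485), with 60.2 CPM in wt/fl and 66.6 CPM in fl/del when Cre was present. Neither gene passed the test in the comparison with Cre, and both were picked on the libraries without Cre that the interaction test includes.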

How the results depend on the processing

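The call of *Kif11* held under 16 of 17 alternatives, with a log2 fold change between −1.63 and −1.34, and was lost with the table that counts its exon 22 alone (−1.58, adjusted p = 0.123 from edgeR), where its counts are lower by construction. No other named gene of the rule changed direction. The 5 genes called in fl/del were 5 with RLE factors, 7 in a fit of the 8 compared libraries, 4 in a fit of 21, 5 with the exon 22 table (4 of them shared), and 5 at an adjusted p under 0.1. DESeq2 called 21 (8 higher, 13 lower), no filter on low counts 80 (39 and 41), filterByExpr 2 (1 and 1), and an unadjusted p under 0.05 gave 1906. The alternatives on p were chosen after the data were seen. With a library left out, the count was between 1 and 18: it was 1 without fl/del replicate 3, 10 without wt/fl replicate 3 and 18 without fl/del replicate 1. With libraries of a shared name prefix summed, 5 genes were called, 0 higher and 5 lower, of which 2 were among the 5 called without summing. Of the members of the 24 lists, *Kif11* was the 1 called. DESeq2 called 4 (with *Cenpk*, *Cnot8* and *Hsp90aa1*), no filter 13, and summed prefixes 2, the counts over exon 22 gave 1, *Tuba3b*, and between 1 and 3 were called with a library left out. With Spo11-Cre, the count of 8 was 14 by DESeq2, 4 by filterByExpr and 5 in the fit of 21 libraries, and the interaction count of 23 was 74, 2 and 4. The cause of these moves was not tested.

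With the replicate number as a block, 85 genes were called (38 higher, 47 lower), among them the 5 called without it, and 16 list members, with *Rpl31*, *Cox7c*, *Tuba3b*, *Cenpk*, *Cnot8*, *Ooep* and *mt-Rnr2*. Deviations of same-numbered libraries had correlations from −0.03 to 0.13 over 9344 genes in 4 pairs (median 0.06). In 12 other pairs across the genotypes, the correlations were −0.18 to 0.13 (median −0.02). So few pairs cannot show whether same-numbered libraries share a step of handling. The labels name no pairing, and none is drawn from the numbers.

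Depth limits the rare genes most, as the intervals in the report show. Some libraries share a mouse, the labels used do not say which, and 4 libraries a group give an exact p of 0.0286 at best. Counts over exons 1 and 22 of *Kif11* were as low as 1 and 3 in fl/del replicate 3.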

Other observations

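The gene lists of this paragraph had no member called by edgeR in fl/del against wt/fl without Cre. Of 44 genes of maternal mRNA storage and decay tested, 3 were higher and 2 lower at an unadjusted p under 0.05 (median log2 fold change 0.03). *Cnot8*, a deadenylase subunit of the CCR4-NOT complex, did not overlap between groups, at 206 CPM in wt/fl and 156 CPM in fl/del (log2 fold change −0.38, adjusted p = 0.183 from edgeR). Of 32 genes of DNA methylation and chromatin, 2 were higher and 2 lower (median −0.01). Among 39 proteasome genes, 1 was higher and 1 lower (median 0.00), with 34 intervals within a 2-fold change. Of 41 histone genes, 2 were higher and 0 lower (median 0), and most were too rare in poly(A) RNA to resolve, with 9 intervals within a 2-fold change. Of 13 genes of embryo genome activation, 2 were higher and 0 lower (median 0.22), with 4 intervals within a 2-fold change. Among 5 tested genes of the *Spo11* locus, 0 were higher and 1, *Rbm38*, was lower (median −0.12).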
